A study of Homo sapiens with 4 samples.

Results

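The regions described here are those that the deposited table of T98G ChIP-seq regions places on chromosome 9, chosen by chromosome alone: 1157 of 29302 regions, or 3.95%. T98G is an established human glioblastoma cell line. The libraries in the table were 1 ChIP library from cells overexpressing LGP2 and 1 ChIP library from cells with the empty vector. Each had an input library, that is, chromatin that skipped the antibody step, which had no column in the table and was not analysed here. The 4 samples differed by genotype (LGP2 overexpressed or VECTOR), while the treatment field names LGP2 overexpression for all 4, so the genotype field was used. LGP2, the product of DHX58, is a cytosolic sensor of viral RNA and a relative of RIG-I. The study lists the vector pair as ChIP-seq for crotonylated lysine. No source used here names the antibody of the LGP2 library or says whether the cells were 1 clone. ChIP reads from chromatin do not measure expression, so neither the level of LGP2 nor the identity of the cells was checked here.

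Chromosome 9 has a short arm (9p) and a long arm (9q), separated by a centromere with an unusually large block of repetitive heterochromatin, and the sequence on either side of that block is rich in near-identical duplications. The short arm carries CDKN2A and CDKN2B, which encode inhibitors of cyclin-dependent kinases, their neighbour MTAP, a methionine salvage enzyme, and the cluster of type I interferon genes. This neighbourhood is often deleted in gliomas, so a stretch with no regions was looked for there. The long arm carries NOTCH1, a receptor of cell fate decisions, and TNC, which encodes the matrix protein tenascin-C.

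With 1 library per condition, no test between LGP2 and vector cells was possible, and no difference has a replicate check. All intervals are 95% exact intervals that cover counting error only. Library depth is unknown. The reads behind each region were recovered from the deposited normalized densities and were few: at regions called in only 1 library the calling library held between 2 and 8 reads, with a median of 3 reads in both sets. The counts refer to an inferred window of 2 kb per region, wider than the region itself, so close neighbours can share reads. The largest sum over both libraries was 12 reads on chromosome 9, against 163 reads in the whole series. Regions were 244 to 1003 bp wide, with a median of 303 bp, and covered 378.1 kb in all. The labels name the mouse build mm10, but the positions are human, and they are read here as GRCh38: of 604 chromosome 9 transcripts matched by symbol to RefSeq, 599 overlapped the gene of that symbol.

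RefSeq gave 1584 promoter windows of 300 bases on chromosome 9, each across a gene's start, and 964 belonged to protein-coding genes. A gene can have more than 1 window. Windows of 11 genes were touched by a region, and 7 of these genes were protein-coding. The other chromosomes were not counted in this way, so no background share stands beside these counts. Of these 7, 5 are shown as examples of covered promoters from both sides of the comparison, picked after their values were seen. They were taken from RefSeq GRCh38.p14 and are written 5′ to 3′ on the gene's strand, with the bases inside the called region in capitals.

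CENPP (chr9:92600007-92600306, plus strand): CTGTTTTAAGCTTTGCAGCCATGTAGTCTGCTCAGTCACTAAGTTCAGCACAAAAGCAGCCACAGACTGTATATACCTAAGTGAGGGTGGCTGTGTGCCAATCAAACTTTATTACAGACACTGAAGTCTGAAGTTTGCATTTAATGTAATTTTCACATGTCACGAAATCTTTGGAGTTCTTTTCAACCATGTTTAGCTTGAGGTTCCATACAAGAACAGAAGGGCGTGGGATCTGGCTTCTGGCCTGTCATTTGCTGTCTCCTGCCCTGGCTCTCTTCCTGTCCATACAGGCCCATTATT
CCDC187 (chr9:136304045-136304344, minus strand): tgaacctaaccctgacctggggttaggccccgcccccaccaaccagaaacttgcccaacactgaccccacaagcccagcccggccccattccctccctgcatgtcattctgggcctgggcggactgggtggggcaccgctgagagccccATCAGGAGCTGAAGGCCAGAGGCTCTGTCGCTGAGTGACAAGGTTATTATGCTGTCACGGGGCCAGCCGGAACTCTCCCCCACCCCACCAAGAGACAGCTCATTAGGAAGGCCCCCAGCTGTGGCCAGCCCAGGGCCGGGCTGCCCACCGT
NFIB (chr9:14314092-14314391, minus strand): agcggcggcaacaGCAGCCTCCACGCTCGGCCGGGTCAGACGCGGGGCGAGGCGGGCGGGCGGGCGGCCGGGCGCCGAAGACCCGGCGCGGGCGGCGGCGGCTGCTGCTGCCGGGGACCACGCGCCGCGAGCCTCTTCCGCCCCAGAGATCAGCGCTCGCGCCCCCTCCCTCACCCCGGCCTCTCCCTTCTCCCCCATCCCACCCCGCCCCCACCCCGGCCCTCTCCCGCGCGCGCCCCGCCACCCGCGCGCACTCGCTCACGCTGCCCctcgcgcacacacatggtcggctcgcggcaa
PLPPR1 (chr9:101184785-101185084, plus strand): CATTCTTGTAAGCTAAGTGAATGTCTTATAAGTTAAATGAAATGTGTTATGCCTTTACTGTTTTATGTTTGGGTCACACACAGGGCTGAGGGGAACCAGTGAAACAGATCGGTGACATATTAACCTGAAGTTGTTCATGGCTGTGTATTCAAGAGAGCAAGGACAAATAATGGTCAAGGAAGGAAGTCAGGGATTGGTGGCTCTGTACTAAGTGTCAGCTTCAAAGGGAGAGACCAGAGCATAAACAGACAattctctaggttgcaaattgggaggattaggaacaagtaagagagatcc
GTF3C4 (chr9:132669785-132670084, plus strand): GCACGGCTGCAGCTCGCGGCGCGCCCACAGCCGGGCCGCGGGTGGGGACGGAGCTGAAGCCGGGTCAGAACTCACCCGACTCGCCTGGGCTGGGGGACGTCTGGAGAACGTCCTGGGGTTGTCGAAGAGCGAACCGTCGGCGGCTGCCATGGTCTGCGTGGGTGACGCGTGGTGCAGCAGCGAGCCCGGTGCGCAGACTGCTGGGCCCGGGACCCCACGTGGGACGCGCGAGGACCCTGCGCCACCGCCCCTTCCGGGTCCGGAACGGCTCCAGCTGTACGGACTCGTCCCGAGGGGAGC

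CENPP encodes a centromere protein; all 300 bases of its window lay in a region called only with the vector, which held 1 LGP2 read and 6 vector reads. CCDC187 had 151 covered bases in an LGP2-only region with 5 LGP2 reads and 1 vector read. NFIB encodes a transcription factor of the nuclear factor I family, and its start lay in a vector-only region with 0 LGP2 reads and 4 vector reads. At PLPPR1, a lipid phosphatase-related membrane protein, the region was called only with LGP2 although it held 2 LGP2 reads and 4 vector reads. GTF3C4 encodes a subunit of the general factor TFIIIC for RNA polymerase III. It shares its start area with DDX31 on the other strand, so 1 vector-only region with 0 LGP2 reads and 3 vector reads covered both. The letters differ widely between these windows: NFIB held 48 CG dinucleotides and GTF3C4 held 38, CCDC187 held 9, CENPP held 2 and PLPPR1 held 1. The median was 11 over the covered windows and 14 over all 1584 promoters.

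One region lay on a microRNA hairpin. It was an LGP2-only region at chr9:91636313-91636605 with 3 LGP2 reads and 1 vector read. It covered part of MIR3910-1 and MIR3910-2, hairpins annotated on opposite strands of the same sequence. Their RefSeq sequences are shown because no other hairpin of the chromosome was touched, with the covered bases in capitals.

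MIR3910-1 (plus strand): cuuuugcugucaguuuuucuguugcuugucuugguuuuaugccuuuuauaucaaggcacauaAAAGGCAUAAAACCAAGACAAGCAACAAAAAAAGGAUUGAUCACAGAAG
MIR3910-2 (minus strand): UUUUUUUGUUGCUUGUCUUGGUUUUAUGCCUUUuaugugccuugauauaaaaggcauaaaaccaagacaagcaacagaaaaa

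The next nearest hairpins were MIR204, at 936 bp from an LGP2-only region with 3 LGP2 reads and 0 vector reads, and MIR6852, at 1100 bp. MIR126, the microRNA inside EGFL7 that is known from endothelial cells, lay 1124 bp from a vector-only region that is described below.

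The 1157 regions fell into 604 called only with LGP2 (LGP2-only), 550 called only with vector (vector-only) and 3 called in both libraries. Over the whole series 54.9% of regions were LGP2-only, 44.9% vector-only and 0.27% were called in both. The LGP2-only share of the 1-library regions was 52.3% on chromosome 9 (49.4 to 55.3%), against 55.1% on all other chromosomes (54.5 to 55.7%), so the intervals overlap. With at least 5 reads in the calling library the share on chromosome 9 was 45.7%. On the other chromosomes that threshold left 3322 LGP2-only and 3548 vector-only regions, so LGP2-only regions were the fewer there too. Chromosome 9 ranked 16 of the 22 autosomes by this share. Along the chromosome, in blocks of 10 Mb, the share was highest at 90 to 100 Mb, with 70 LGP2-only and 45 vector-only regions (60.9%, 51.3 to 69.8%), and at 130 to 140 Mb, the end of the long arm, with 78 and 52 (60%, 51.0 to 68.5%). It was lowest, among blocks with 20 or more regions, at 70 to 80 Mb, with 52 and 59 (46.8%, 37.3 to 56.6%). Among the blocks with 20 or more regions, every interval overlaps that of every other block.

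**Figure D1:**
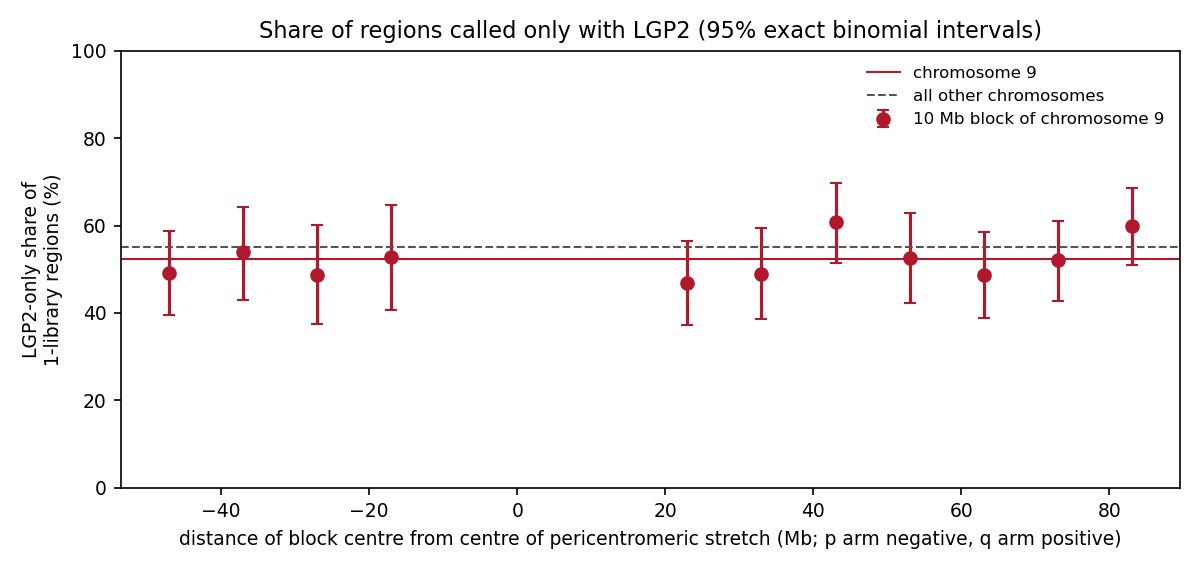
The percentage of 1-library regions called only with LGP2 in 10 Mb blocks of chromosome 9 with at least 20 such regions, against the distance of the block's centre from the centre of the pericentromeric stretch in Mb; bars are 95% exact binomial intervals. The blocks run between 46.8% and 60.9% around the 52.3% of chromosome 9 (solid line) and the 55.1% of all other chromosomes (dashed line).

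The calls separated the libraries by definition, and the reads show how thin that separation was. Of the 604 LGP2-only regions, 521 held more LGP2 reads than vector reads, 59 held equal numbers and 24 held more vector reads. Of the 550 vector-only regions, 504 held more vector reads, 36 equal numbers and 10 more LGP2 reads. Regions with 5 or more reads in the calling library were 102 of 604 LGP2-only regions (16.9%, 14.0 to 20.1%), against 21.5% on the other chromosomes (20.8 to 22.1%). Among vector-only regions they were 121 of 550 (22%, 18.6 to 25.7%), against 28.2% (27.4 to 29.0%). Regions of chromosome 9 thus held fewer reads than those elsewhere in both libraries.

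By normalized density, with 1 read added per library, 355 regions (30.7%, 28.0 to 33.4%) were at least 2-fold higher with LGP2, where the whole series had 29.5%, and 317 (27.4%, 24.9 to 30.1%) at least 2-fold lower, where it had 25.2%. The median log2 ratio was 0.13 on chromosome 9 and 0.15 over all regions. These shares lie near the background of the series. All 355 were LGP2-only regions and all 317 were vector-only regions, which the calling fixes in large part, and 172 and 207 of them had 0 reads in the other library. With 5 reads added in place of 1, 30 regions were 2-fold higher and 43 lower. That setting used the recovered reads, so it also left out the normalization held in the densities. Centring the ratios of all regions on 0 lowered every ratio by 0.15 on the log2 scale and gave 282 higher and 384 lower, so the balance of the directions depends on the scaling.

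Chromosome 9 held 8.36 regions per Mb (7.89 to 8.86), against 9.54 per Mb on all other chromosomes (9.43 to 9.66), a ratio of 0.876 (0.826 to 0.929). It ranked 18 of 22 autosomes by region density and 13 by density of protein-coding genes. Around the centromere the chromosome was nearly bare. Between 39 and 68 Mb there were 11 regions over 29 Mb, or 0.379 per Mb, 4 LGP2-only and 7 vector-only, each with 2 to 4 reads in the calling library. The ratio of 0.876 counts this stretch in the chromosome's length. Outside it the density was 9.10 per Mb on 9p (8.18 to 10.1) and 11.2 per Mb on 9q (10.5 to 12.1). The centromeres of the other chromosomes were not left out, and their total includes X (4.26 per Mb) and Y (0.507 per Mb). No region lay in the 16.9 Mb between 43652429 and 60572048. Reads from near-identical duplicates can be lost or misplaced in alignment, and no source used here says how the authors treated them.

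The short arm was sparser than the long arm. Below 43 Mb, 9p held 357 regions, 180 LGP2-only, 175 vector-only and 2 called in both, or 8.30 per Mb (7.46 to 9.21). Above 61 Mb, 9q held 796 regions, 422 LGP2-only, 373 vector-only and 1 called in both, or 10.3 per Mb (9.59 to 11 per Mb). The density on 9p was 0.807 times that on 9q (0.710 to 0.915). Leaving out 39 to 68 Mb gave 0.809 (0.712 to 0.918), with 2 regions fewer on 9p and 5 fewer on 9q. It was 0.774 among LGP2-called regions (0.647 to 0.923) and 0.851 among vector-called regions (0.708 to 1.02), where the interval includes 1.

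**Figure D2:**
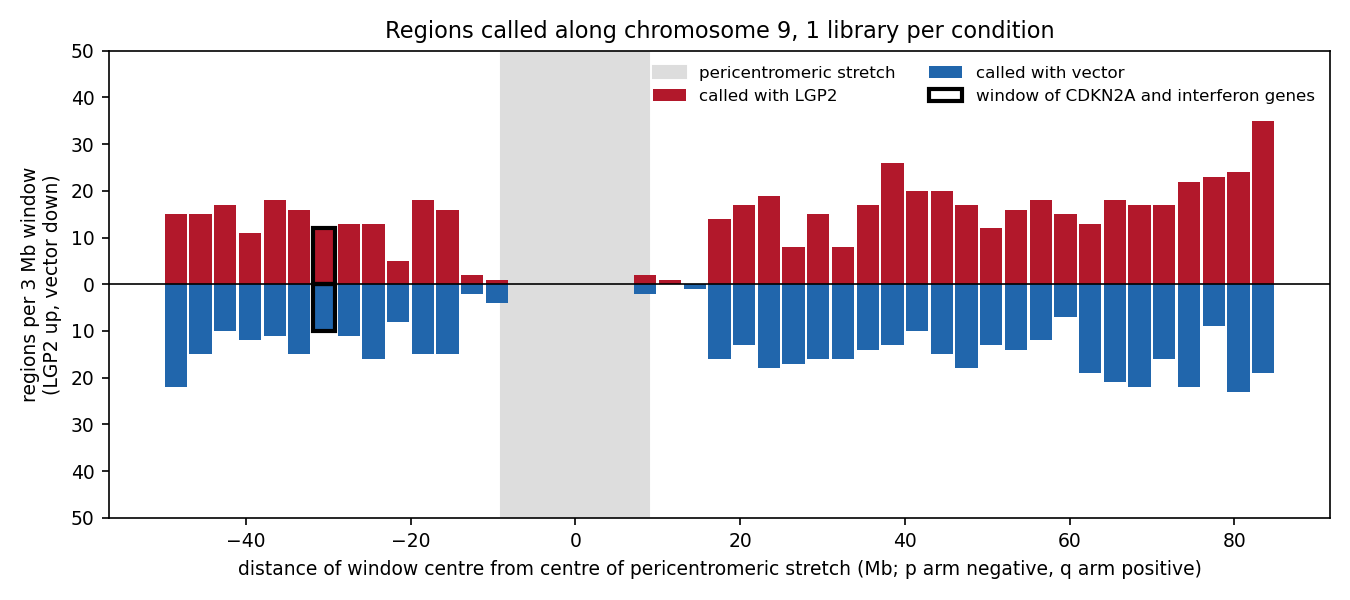
Regions per 3 Mb window of chromosome 9, called with LGP2 (up) and with vector (down), against the distance of the window's centre from the centre of the pericentromeric stretch in Mb; the window of CDKN2A and the interferon genes is outlined, and the first 2 Mb and the incomplete last window are not drawn. The outlined window holds 12 regions called with LGP2 and 10 with vector, and the tallest bars stand at the end of the long arm, with 35 and 19.

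The 3 Mb windows outside 39 to 68 Mb numbered 35 and held 13 to 54 regions each, with a median of 30. The densest ran from 134 to 137 Mb, with 58 protein-coding genes and 54 regions, 35 called with LGP2 and 19 with the vector. The sparsest ran from 29 to 32 Mb on 9p, with 1 protein-coding gene and 13 regions, 5 called with LGP2 and 8 with the vector. As a description over these 35 windows, which come from the same 2 libraries, the number of coding genes and of regions had a Pearson r of 0.496 and a Spearman rank coefficient of 0.454.

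The window from 20 to 23 Mb, which holds CDKN2A and the interferon genes, was not empty. It held 22 regions (13.8 to 33.3), 12 called with LGP2 and 10 with the vector, and 25 protein-coding genes. Of the 35 windows, 1 held fewer regions, 1 other held the same number and the remaining 32 held more. On 9p the median of 12 windows was 29 regions. Of 932 windows on all autosomes, 176 held fewer, but windows at centromeres were not left out there, and 37 of the 932 were empty. The window was therefore at the sparse end of the chromosome, within the range of its windows. Its 3 megabases, from 20 Mb up, held 7, 8 and 7 regions.

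The table lists called regions only, so a stretch without one says nothing of how many reads lay there, and no copy number was measured. With that limit, the reads at the regions that were called are as follows. The 12 LGP2-only regions of the window held 2 to 5 LGP2 reads and 8 of them held 0 vector reads. The 10 vector-only regions held 2 to 5 vector reads and 6 of them held 0 LGP2 reads. Over both libraries that is 53 LGP2 reads and 43 vector reads.

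From the start of the window, the first regions lay in SLC24A2, which encodes a sodium, calcium and potassium exchanger of neurons. There were 3, all LGP2-only, with 5, 4 and 4 LGP2 reads and 0 vector reads each. MLLT3, a chromatin reader of acylated lysine on histones that is fused to KMT2A in leukaemia, held 3 intronic regions. At chr9:20451673-20451957 the reads were 0 with LGP2 and 4 with vector. At chr9:20483414-20483871 they were 5 with LGP2 and 0 with vector, and at chr9:20489800-20490170 they were 4 with LGP2 and 1 with vector. The direction thus differed between regions of the same gene. FOCAD, a gene of focal adhesion signalling, had 1 vector-only region with 0 LGP2 reads and 5 vector reads. HACD4, an enzyme of fatty acid elongation, had 1 with 2 LGP2 reads and 3 vector reads.

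Of the 17 interferon genes on the arm, 0 had a region in the gene itself. Between the first and the last gene of the cluster there were 3 regions, all vector-only. The first, assigned to AL390882.1, held 1 LGP2 read and 3 vector reads. The second lay within 1 kb of the start of IFNA12P, an interferon pseudogene, with 3 LGP2 reads and 4 vector reads. The third, at chr9:21435093-21435364 and 5075 bp from IFNA1, held 3 LGP2 reads and 2 vector reads. None of the 3 was 2-fold higher or lower with LGP2. Interferon alpha genes are near copies of each other, so reads there may be assigned to the wrong copy.

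CDKN2A, at chr9:21967752-21995324, lay inside a stretch of 390.3 kb without a region, between 21833461 and 22223795. The stretch also holds CDKN2B, the antisense transcripts CDKN2A-AS1 and CDKN2B-AS1, and part of MTAP. The nearest region was 134291 bp from CDKN2A. On its left side stood an LGP2-only region in an intron of MTAP with 3 LGP2 reads and 0 vector reads. On its right side stood an LGP2-only region assigned to AL157937.1 with 3 LGP2 reads and 2 vector reads. Both libraries thus held reads at the right edge, and the LGP2 library at both edges.

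**Figure D3:**
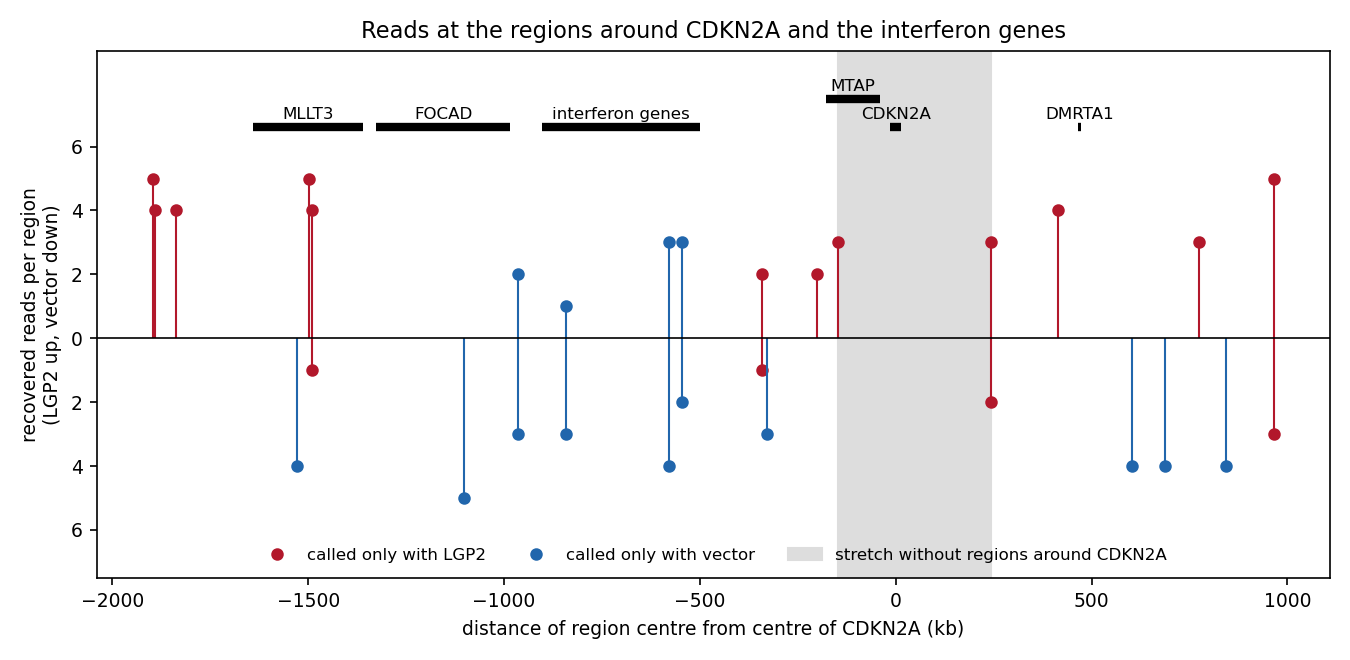
Recovered reads at each of the 22 regions between 20 and 23 Mb (LGP2 reads up, vector reads down, coloured by the library that called the region) against distance from the centre of CDKN2A in kb; black bars mark gene bodies, the interferon bar running from IFNB1 to IFNE, and grey the stretch without regions. Regions with 2 to 5 reads in the calling library stand on both sides of the 390.3 kb stretch.

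The stretch was among the longer ones of the chromosome, though not the longest, and its length was not tested against chance. Outside 39 to 68 Mb the median stretch between neighbouring regions was 62.4 kb, and 23 of 1144 (2.01%) were at least as long, 9 of them among the 354 on 9p. On all autosomes, where stretches at centromeres were not left out, 658 of 28586 were (2.30%). Elsewhere in the same window another 390.1 kb, between the regions of MLLT3 and FOCAD, held none either. The stretch differed by library. Among LGP2-called regions alone it was the same 390.3 kb, which 71 of 601 stretches reached, and among vector-called regions alone it was 930.4 kb, between 21653429 and 22583820, which 8 of 544 reached. The longest vector-called stretch on the chromosome outside the flanks was 1072 kb. No region called with the vector therefore lay between the area next to H3P30, a histone pseudogene, and LINC01239, while 4 LGP2-only regions did.

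**Figure D4:**
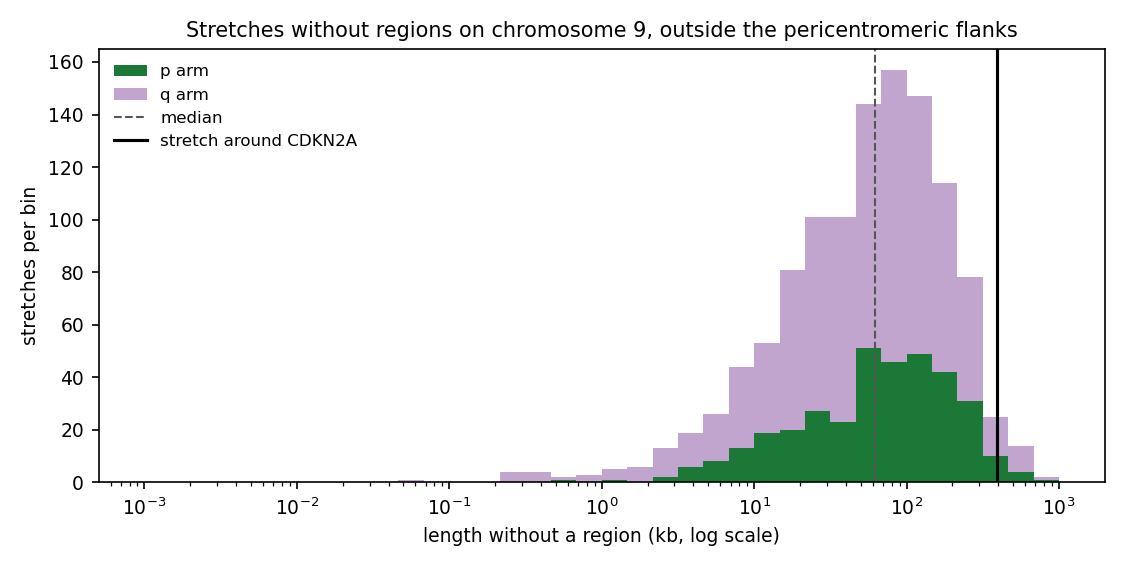
Histogram of the lengths, in kb on a log scale, of the 1144 stretches between neighbouring regions of chromosome 9 outside 39 to 68 Mb, stacked by arm. The 390.3 kb stretch around CDKN2A (solid line) lies to the right of the median of 62.4 kb (dashed line), with 23 stretches at least as long, itself included.

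Past the stretch, DMRTA1, a DM domain gene, had an LGP2-only region at 52025 bp with 4 LGP2 reads and 0 vector reads. In and beside the long non-coding RNA LINC01239, 3 vector-only regions held 0 LGP2 reads and 4 vector reads each, and 1 LGP2-only region held 3 LGP2 reads and 0 vector reads. The last region of the window, on the side of ELAVL2, held 5 LGP2 reads and 3 vector reads.

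Longer stretches stood elsewhere. The longest on 9p, 3259 kb up to 41715648, and on 9q, 3047 kb from 65401177, touched the duplicated flanks. Outside 39 to 68 Mb the longest on 9p was 832.3 kb from 30346996, with 0 protein-coding genes wholly inside. The longest on 9q was 732.4 kb from 109562322, which holds TXN, the gene of thioredoxin, and PALM2AKAP2 and C9orf152. A stretch of 624 kb from 4576788 holds JAK2, the tyrosine kinase of interferon and cytokine receptors, and a stretch of 681 kb from 37309599 holds 10 coding genes, among them EXOSC3, a subunit of the RNA exosome. The long stretches thus fell both on gene-poor and on gene-rich sequence.

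Reads of the library that did not call a region are limited by the missing call, and whether that limit acts alike on every chromosome was not tested. On chromosome 9 the non-calling library held 1.13 reads per 1-library region (1.07 to 1.19), against 1.40 on all other chromosomes (1.39 to 1.42), a ratio of 0.803 (0.760 to 0.849). It held 0.983 on 9p (0.883 to 1.09) and 1.19 on 9q (1.12 to 1.27), and the ratio of 9p to 9q was 0.824 (0.726 to 0.932). The ratio was 0.827 at LGP2-only regions and 0.830 at vector-only regions. In the window of CDKN2A and the interferon genes it held 0.727 (0.416 to 1.18), against 1.00 on the rest of 9p (0.896 to 1.11), and the ratio of 0.727 had an interval that includes 1 (upper limit 1.2). Both arms were thus below the level of the other chromosomes, and 9p below 9q. Chromosome 9 ranked 18 of 22 autosomes by this level. Chromosome 10 was lower, at 1.01 reads, and chromosomes 7 and 20 were higher, at 1.60 and 2.38. The level is not a measure of copy number, and its cause was not tested.

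**Figure D5:**
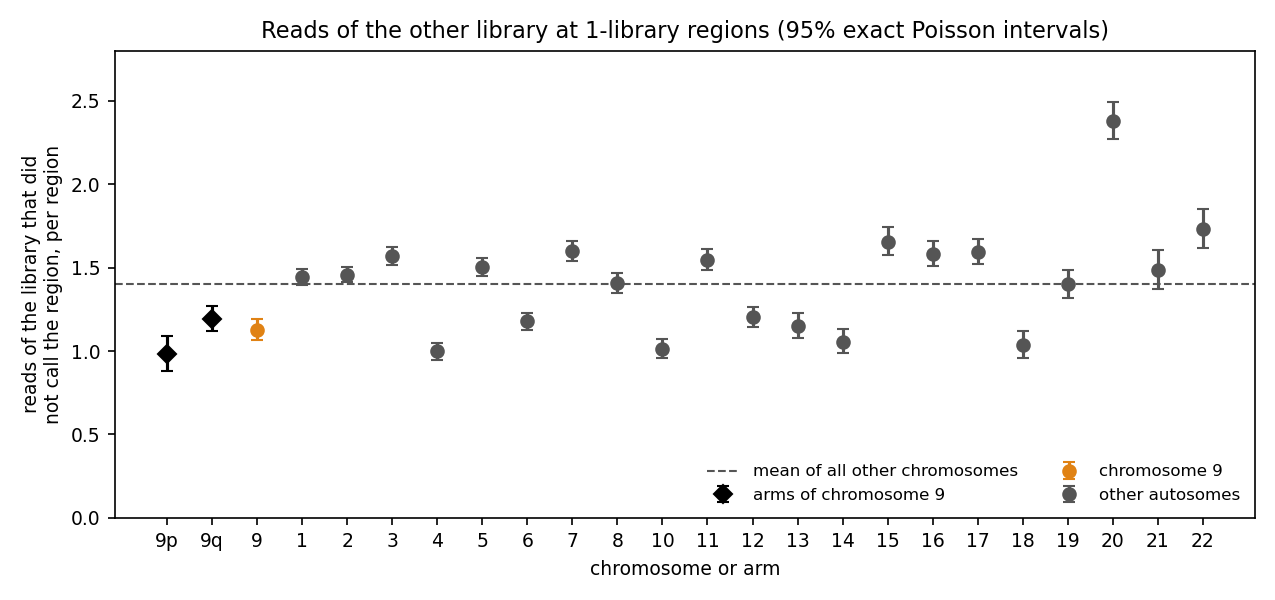
Mean recovered reads of the library that did not call the region, per 1-library region, on both arms of chromosome 9, on chromosome 9 and on the other autosomes; bars are 95% exact Poisson intervals. The short arm (0.983) and the long arm (1.19) lie below the mean of all other chromosomes (1.40, dashed line).

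The share of regions with no read in the other library was compared in the same way. Of LGP2-only regions on chromosome 9, 172 (28.5%, 24.9 to 32.3%) had 0 vector reads, where the whole series had 21.7%. Of vector-only regions, 207 (37.6%, 33.6 to 41.8%) had 0 LGP2 reads, where the whole series had 33.6%. On 9p these shares were 33.3% (26.5 to 40.7%) and 45.7% (38.2 to 53.4%), and on 9q they were 26.3% (22.2 to 30.8%) and 33.8% (29.0 to 38.8%). On 9q the vector-only share was thus close to that of the series, and the intervals of the arms overlap in both sets. Within the window of CDKN2A, 14 of 22 regions had 0 reads in the other library (63.6%, 40.7 to 82.8%), against 37.8% on the rest of 9p (32.6 to 43.3%), with intervals that overlap. A count of 0 in 1 region has an upper limit of 3.69 reads, so no single region shows absence.

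The 3 regions called in both libraries were OSTCP8, UNC13B and RPS19P6. The first, at chr9:33965884-33966492 near the pseudogene OSTCP8 inside UBAP2, held 3 LGP2 reads and 4 vector reads. UNC13B, which encodes a protein that primes synaptic vesicles, had an intronic region with 4 LGP2 reads and 7 vector reads. RPS19P6, a ribosomal protein pseudogene, had an intergenic region with 4 LGP2 reads and 2 vector reads. None of the 3 reached 2-fold in either direction. Of 607 LGP2-called regions, 6 lay within 1000 bp of a vector-called region and 55 within 10 kb. The median distance from an LGP2-called region to the nearest vector-called region was 63.4 kb, against 59.5 kb to the nearest other LGP2-called region. These counts and distances were not taken on the other chromosomes, so no background stands beside them.

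Among LGP2-only regions, the 2 with the most LGP2 reads lay close together near the transcript AL160271.1. At chr9:131797289-131797577 there were 8 LGP2 reads and 3 vector reads, and at chr9:131797956-131798224 there were 8 LGP2 reads and 4 vector reads. These regions lie closer together than the inferred read window of 2 kb, so their counts can share reads and are not independent. A region in the last intron of TDRD7, a Tudor domain protein of RNA granules, held 7 LGP2 reads and 1 vector read, and so did an intergenic region assigned to HMGB3P23. The fifth was in DDX58, also named RIGI, which encodes RIG-I, the RNA sensor of the family to which LGP2 belongs. Its region in intron 14, at chr9:32468571-32468912, held 6 LGP2 reads (2.20 to 13.1) and 0 vector reads (0 to 3.69), so the intervals of both counts overlap. It was 1 of 10 LGP2-only regions of the chromosome with 6 LGP2 reads and 0 vector reads, so DDX58 was not alone in these reads.

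Among vector-only regions, an intronic region of AL162725.1 and a region within 2 kb of the start of AL354692.1 each held 0 LGP2 reads (0 to 3.69) and 8 vector reads (3.45 to 15.8), with intervals that overlap. The region in EGFL7 next to MIR126, at chr9:136671810-136672812, held 1 LGP2 read and 8 vector reads, a log2 ratio of -2.02. EGFL7 encodes a secreted factor of blood vessel growth. SCAI, a cofactor that restrains transcription by MKL1, had an intronic region with 2 LGP2 reads and 8 vector reads. A region in the body of GLIS3, which the table assigns to SLC1A1, held 0 LGP2 reads and 7 vector reads.

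By the table's assignment to the nearest gene, ADAMTSL1, BRINP1 and PCSK5 had 9 regions each, 4 LGP2-only and 5 vector-only in every case. ADAMTSL1 is a secreted matrix protein, BRINP1 a neural inhibitor of the cell cycle and PCSK5 a proprotein convertase. AL589923.1 and TRPM3, a calcium channel, had 8 each, with 7 and 6 LGP2-only regions. By gene body in RefSeq the order was another. PTPRD, a receptor tyrosine phosphatase and tumour suppressor over 2299 kb, held 21 regions, 11 LGP2-only and 10 vector-only, with 41 LGP2 reads and 43 vector reads. TRPM3 held 19, 10 and 9, with 40 LGP2 reads and 42 vector reads. ASTN2, a gene of neuronal migration, held 14, 8 and 6. These 3 genes thus had regions of both libraries in near equal numbers. In all 256 of 778 protein-coding genes had a region in their body (32.9%, 29.6 to 36.3%), against 32.6% on the other chromosomes, and their median length was 87.3 kb, against 12.3 kb for those without one.

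Some genes had regions of mainly 1 library. GLIS3, a zinc finger factor of the pancreas and thyroid, held 6 regions, all vector-only, with 4 LGP2 reads and 22 vector reads in sum. PAPPA, a protease of insulin-like growth factor binding proteins, had 4, all vector-only, with 3 LGP2 reads and 17 vector reads. GRIN3A, an NMDA receptor subunit, had 3, all vector-only, with 4 LGP2 reads and 12 vector reads. DAPK1, a kinase of cell death, held 6 regions in its body, 5 LGP2-only and 1 vector-only. NTRK2, the receptor of the neurotrophin BDNF, held 5, 1 LGP2-only and 4 vector-only, with 8 LGP2 reads and 19 vector reads. These genes were singled out after their values were seen, among many genes with few regions each, so they are a description only.

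The gene lists were read the same way, beside the chromosome's own 604 and 550 and its shares of 30.7% at least 2-fold higher and 27.4% lower. In the lists, a region counted for a gene when it lay in the gene body or was assigned to the gene from outside it. The share of all genes with a region under that rule was not counted. The 32.9% given above for coding genes counts gene bodies only, so the list counts have no like background. Of 20 genes of the short arm neighbourhood of CDKN2A, 12 had a region, 38 regions in all, 22 LGP2-only and 16 vector-only; 13 were at least 2-fold higher (34.2%), 8 lower (21.1%), and the median log2 ratio was 0.70, against 0.13 on the chromosome. LINGO2, a neuronal leucine-rich repeat protein, took 11 of them, 5 LGP2-only and 6 vector-only, and SLC24A2 took 10, 6 and 4. MOB3B, a kinase activator, had 3 LGP2-only regions with 2 or 3 LGP2 reads and 1 vector read each. TUSC1, a candidate tumour suppressor, was assigned 2 vector-only regions at 29644 and 49876 bp, with 0 LGP2 and 5 vector reads and with 3 LGP2 and 4 vector reads. PLAA, IFT74 and IZUMO3 had 1 or 2 regions each. Of the 18 genes of the interferon cluster, only IFNA1 had an assigned region.

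Of 20 immune and chromatin genes of the short arm, 12 had a region, 33 in all, 15 LGP2-only and 18 vector-only, with 10 at least 2-fold higher and 10 lower (30.3% each) and a median log2 ratio of 0.15. KDM4C, a histone demethylase, had 8, 4 of each kind. SMARCA2, an ATPase of the SWI/SNF complex, had 2 LGP2-only regions, with 4 LGP2 reads and 1 vector read and, outside its body, with 5 LGP2 reads and 1 vector read. PDCD1LG2, the immune checkpoint ligand PD-L2, had 2 LGP2-only regions, outside its body with 5 LGP2 reads and 1 vector read and inside it with 4 LGP2 reads and 2 vector reads. PAX5, the master factor of B cells, had an intronic LGP2-only region with 6 LGP2 reads and 0 vector reads. DOCK8, an exchange factor of lymphocytes, had 4, 2 of each kind, and RFX3, a factor of cilia, also had 4, 2 of each kind. KANK1 had 3 vector-only regions, 2 of them in its body, with 8 LGP2 reads and 10 vector reads in sum. As many regions of the list were 2-fold higher as lower.

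Of 29 cancer genes, 21 had a region, 82 in all, 43 LGP2-only and 39 vector-only, with 27 at least 2-fold higher (32.9%), 20 lower (24.4%) and a median log2 ratio of 0.15. NOTCH1 had 3 regions. Its last exon held 6 LGP2 reads and 2 vector reads, an exon further up 4 LGP2 reads and 3 vector reads, and the region at a start 2 LGP2 reads and 4 vector reads. TNC had 3 regions, with 0 LGP2 and 5 vector reads, with 0 LGP2 and 7 vector reads, and with 2 LGP2 reads and 1 vector read. The first lay outside the gene body and the other 2 inside it. The second lay at chr9:115020405-115020774 in the 3′ UTR, and the intervals of its 0 LGP2 reads (0 to 3.69) and 7 vector reads (2.81 to 14.4) overlap. NFIB had, besides the vector-only region at its start, LGP2-only regions with 4 LGP2 and 2 vector reads and with 4 LGP2 reads and 1 vector read. VAV2, a guanine nucleotide exchange factor, had 7, 4 LGP2-only and 3 vector-only. FANCC, a gene of Fanconi anaemia, had 6, 3 of each kind, and 3 of the 6 lay in its body. The regions of a gene thus often differed in direction.

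Of 28 long genes 25 had a region, 162 in all, 78 LGP2-only and 84 vector-only, with 47 at least 2-fold higher (29.0%), 51 lower (31.5%) and a median log2 ratio of 0.02. Of 21 housekeeping genes, which most cells express, 5 had a region, 8 in all, 4 of each kind, with 3 at least 2-fold higher (37.5%), 2 lower (25%) and a median log2 ratio of 0.34. TLN1, the gene of talin, RAD23B and UBE2R2 had 2 each, and PPP6C had 1, outside its body, with 4 LGP2 reads and 0 vector reads. Of 25 genes of other tissues, 12 had a region, 15 in all, 7 LGP2-only and 8 vector-only, with 3 at least 2-fold higher (20%), 6 lower (40%) and a median log2 ratio of -0.27. Among them TYRP1, a melanocyte enzyme, was assigned 3 vector-only regions, all outside its body, with 0 LGP2 reads and 10 vector reads in sum. OR1L1, an olfactory receptor, was assigned an LGP2-only region outside its body with 6 LGP2 reads and 0 vector reads. AMBP, a liver gene, had 1 of each kind. The difference in share between genes of other tissues (12 of 25) and housekeeping genes (5 of 21) was not tested, and gene length moves with having a region.

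By position in gene models, 479 regions were intronic (41.4%), 413 intergenic (35.7%), 199 within 3 kb of a start, called promoter by the table (17.2%, 15.1 to 19.5%), 33 exonic, 21 in 3′ UTRs, 11 just downstream of a gene and 1 in a 5′ UTR. The promoter share was 20.2% on the other chromosomes (19.7 to 20.7%), 12.6% on 9p (9.34 to 16.5%) and 19.3% on 9q (16.7 to 22.3%). LGP2-only and vector-only regions were at promoters in like shares, 17.5% (14.6 to 20.8%) and 16.7% (13.7 to 20.1%). Within 1 kb of a start the counts were 36 LGP2-only (5.96%, 4.21 to 8.16%) and 49 vector-only (8.91%, 6.66 to 11.6%), with intervals that overlap. On the other chromosomes the order was the opposite, with 10.2% (9.69 to 10.7%) of LGP2-only and 8.29% (7.81 to 8.78%) of vector-only regions. In 3′ UTRs there were 18 LGP2-only regions (2.98%, 1.78 to 4.67%) and 3 vector-only regions (0.545%, 0.113 to 1.59%), with intervals that do not overlap. On the other chromosomes the shares were alike, at 1.54% (1.35 to 1.74%) and 1.49% (1.29 to 1.72%), and the class was 1 of several looked at. The nearest gene was protein-coding for 500 regions (43.2%), a long non-coding RNA for 292 (25.2%) and a processed pseudogene for 192 (16.6%).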

How the data were processed

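Values came from 1 deposited table of 29302 regions. Per the file headers, the authors deposited for each region a normalized read density per ChIP library (a signal value), a log2 ratio and mean log2 level, a p-value, and the nearest gene. The authors' p-value and log2 ratio were not printed or compared. No source used here names the aligner, the region caller, its threshold or the tool that normalized the libraries. Whole reads were recovered from the densities: after removal of a straight line fitted on 3982 regions (intercept 0.105, slope 0.0452) every region gave whole reads within 0.01, with 1 read added per library and an inferred window of 2 kb. Log2 ratios here were computed from the deposited densities of both libraries, so they keep that line. The exceptions are the settings with 5 reads added and with scaling by the reads at regions of the other library. Both used the recovered reads and leave the line out. Exact binomial, Poisson and rate-ratio intervals (SciPy 1.17.1, 95%) cover counting error only. Read recovery and intervals were tested on simulated data. Named regions were those of the 20 to 23 Mb window, those beside the longest stretches, those called in both libraries, the 5 most-read of each set, the 5 genes with most regions, up to 8 genes per list, and DDX58, TNC and MLLT3; others were singled out after their values were seen. Members and lists were chosen with earlier results of these data known.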

Additional observations from a re-analysis of the deposited data

How the results depend on the processing

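No paired analysis was possible because each group had 1 library. With at least 5 reads in the calling library, 103 regions were called with LGP2 and 122 with the vector, the LGP2-only share was 45.7%, and the 20 to 23 Mb window held 4 regions. That window held 41 regions when widened to 19 to 24 Mb and 8 when narrowed to 21 to 22 Mb. Counting regions within 1000 bp as shared gave 6 in place of 3. The longest stretch ending below 43 Mb on 9p was 1149 kb among LGP2-called regions alone. That value is not a shortening. No LGP2-called region lay between 39 Mb and 43331467, so the stretch there crossed 43 Mb and was not counted. The longest on 9q was 6732 kb with at least 3 reads. With 5 reads added and the fitted line left out, 30 regions were 2-fold higher and 43 lower. With at least 5 reads over both libraries 139 were higher and 149 lower. The promoter share was 7.35% within 1 kb. Among alternatives chosen after seeing the data, the stretch around CDKN2A was 930.4 kb among vector-called regions. These settings keep fewer regions or define the result in another way, so counts and stretch lengths can change by construction. The lower LGP2-only share at 5 reads does not follow from fewer regions alone. At that threshold 16.9% of the regions called only with LGP2 remained, against 22% of those called only with the vector. On the other chromosomes the same percentages were 21.5% and 28.2%. Why the percentages of the 2 libraries differ was not tested. The other alternatives stayed within 1.5 times the main count or inside its interval. Of these, 2 scalings moved the balance of 2-fold calls: 52.8% of them were higher in the main calculation and 42.3% after centring on 0. After scaling by the reads at regions of the other library 64.2% were higher. That scaling, which also left out the fitted line, raised the chromosome's median by 0.35 on the log2 scale. Depth limits every statement on a single region.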
